A study of Mus musculus with 12 samples.

Results

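The pluripotency factor genes are 9 genes that mouse embryonic stem cells (ESCs) need or use to keep their identity: Pou5f1, Nanog, Sox2, Klf2, Klf4, Esrrb, Zfp42, Lin28a and Sall4. They were chosen by name, as 9 of the 22380 protein-coding genes of the annotation. BRG1 regions at their promoters (1 kb either side of an annotated transcription start site, TSS), in their bodies and within 100 kb of either end were then collected from a BRG1 ChIPseq list of cardiac precursors (CPs). All 9 genes were found in the annotation, and 6 of the 3473 distinct regions of the list lay within 100 kb of them.

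ChIPseq recovers and sequences the DNA bound by a protein, here BRG1, the ATPase of BAF chromatin remodelling complexes. The CPs were wild type, of strain W4/129S6 at passages 15-20, and were made in culture from ESCs through embryoid bodies with VEGF, Activin and BMP4 and then in monolayers with FGFs, so that they are a culture model of early heart cells and not cells of an embryo. Cells were crosslinked with disuccinimidyl glutarate and then formaldehyde, and chromatin was digested with MNase before immunoprecipitation with an antibody to BRG1. The list stands for 2 BRG1 ChIP libraries and 1 input library, and the other 9 libraries of the series were not analysed here. It gives positions only, so there is no spread between replicates, the depth is unknown, and no difference was tested. The number of distinct regions is the same as the number of BRG1 sites that the paper gives for cardiomyocytes, while the number of rows is that for CPs, and how the list came to hold repeated rows was not tested. The regions are called those of CPs because the list is labelled so, but whether the distinct regions are sites of CPs, of cardiomyocytes or of both cannot be told from the list, and this holds for every value given here. Neither the share of ESCs that remained among the CPs nor the expression of any gene can be read from such a list.

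In ESCs, POU5F1 (OCT4), SOX2 and NANOG form a core of transcription factors that bind enhancers of one another and of many other genes. KLF2, KLF4 and ESRRB add to this network in the naive state, and SALL4 works with the core factors, while LIN28A binds RNA and blocks maturation of let-7 microRNAs. ESCs contain an ESC form of the BAF complex with BRG1 as its ATPase, and most of the 9 genes are switched off as cells leave pluripotency for mesoderm and heart.

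A BRG1 region lay at a promoter of 2 of the 9 genes, Klf4 and Sall4 (22.2%), where 11.9% of all protein-coding genes had a promoter region. The same 2 genes were those with a region in the gene body, against 12.3% of all protein-coding genes. Within 100 kb, 4 of the 9 genes (44.4%) had a region, against 40.3% of all protein-coding genes: Pou5f1 and Klf4 had 1 each, and Lin28a and Sall4 had 2 each. Nanog, Sox2, Klf2, Esrrb and Zfp42 had none. The share within 100 kb was close to that of all genes, whereas within 200 kb 7 of the 9 genes had a region, against 55.5% of all protein-coding genes. With 9 genes, the promoter share rests on Klf4 and Sall4 alone. With promoters of 500 bp either side, Klf4 was the only member with a region, against 11.5% of all protein-coding genes. The same held for the 5'-most TSS only (10.8% of all protein-coding genes). It also held where a region was given only to the gene with the nearest TSS (11.1%), a rule chosen after the data had been seen. Of the 6 regions, 2 were at a promoter of the member itself, and that of Sall4 was also at a promoter of Gm14261, a non-coding gene. Of the others, 3 were at promoters of the neighbours H2-Q7, Hmgn2 and Atp9a, and 1 was at no promoter.

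**Figure D1:**
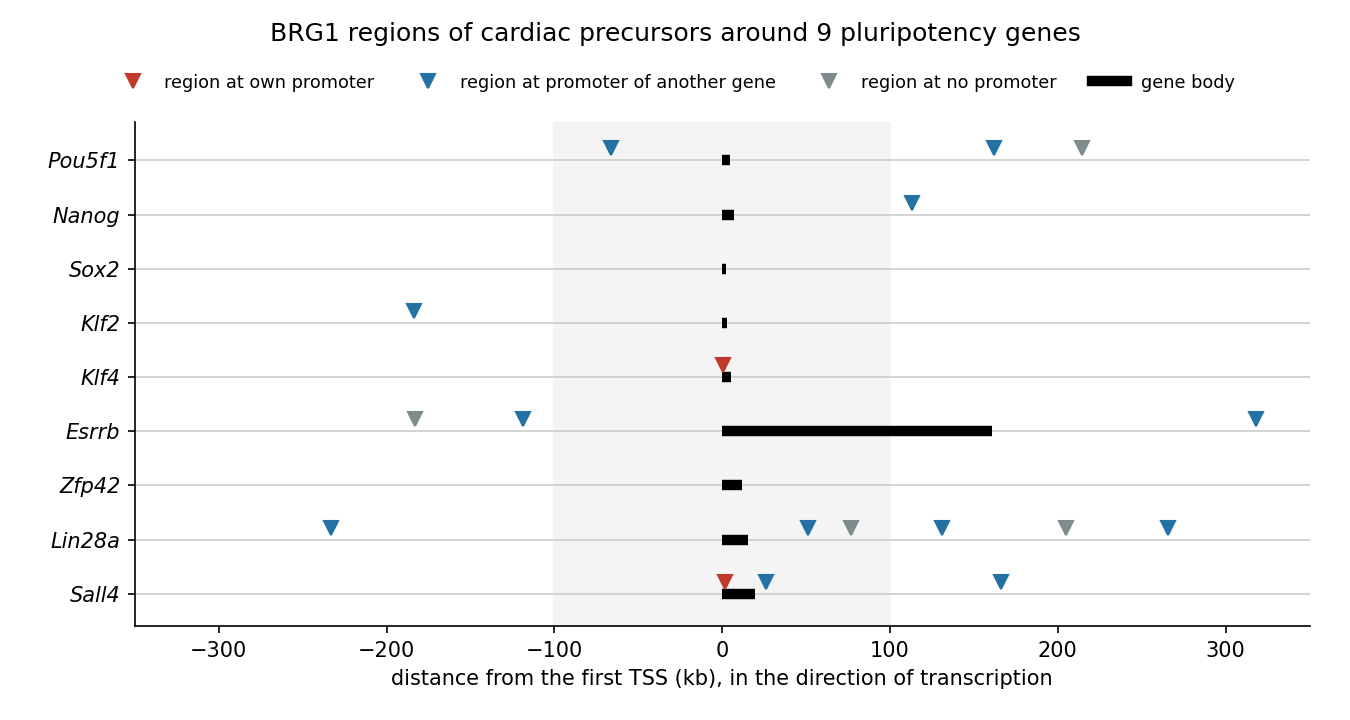
BRG1 regions (triangles, at region midpoints) around the 9 genes, plotted by distance in kb from the first TSS in the direction of transcription, with gene bodies in black and 100 kb either side of that TSS shaded. Klf4 and Sall4 have a region at their own promoter, and that of Sall4 is also at a promoter of Gm14261. No region is drawn for Sox2 and Zfp42, whose nearest regions were 629 kb and 1631 kb from the TSS.

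Sequences from 4 of the 6 regions are printed with every CG pair in capitals: those at the Klf4 and Sall4 promoters, the other region near Sall4, and the region near Lin28a that lay at no promoter. The regions at H2-Q7 and Hmgn2 are given by position. The 4 printed stretches are on mm9, and none of them overlaps an annotated UTR. The Klf4 sequence (chr4:55545348-55545565, minus strand) is the upstream part of the Klf4 region, 218 bases with 29 CG pairs that end next to the first base of the gene. The Sall4 sequence (chr2:168591546-168591845, plus strand) is the middle 300 bases of the 380 bp region in a Sall4 intron, with 21 CG pairs, and 102 of its bases are an exon of Gm14261, a non-coding gene on the opposite strand from Sall4. The Atp9a sequence (chr2:168567126-168567205, minus strand) is the whole region downstream of Sall4, with 9 CG pairs: its initial 24 bases are coding sequence of an Atp9a exon and the other 56 are intron. The Lin28a sequence (chr4:133497866-133498045, plus strand) is the whole intergenic region downstream of Lin28a, 180 bases with 2 CG pairs.
Klf4 upstream: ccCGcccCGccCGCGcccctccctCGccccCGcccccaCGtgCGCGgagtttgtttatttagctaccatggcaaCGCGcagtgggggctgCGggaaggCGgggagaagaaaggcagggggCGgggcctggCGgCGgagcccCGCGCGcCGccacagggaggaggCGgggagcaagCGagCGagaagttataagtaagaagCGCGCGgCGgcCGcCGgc
Sall4 intron: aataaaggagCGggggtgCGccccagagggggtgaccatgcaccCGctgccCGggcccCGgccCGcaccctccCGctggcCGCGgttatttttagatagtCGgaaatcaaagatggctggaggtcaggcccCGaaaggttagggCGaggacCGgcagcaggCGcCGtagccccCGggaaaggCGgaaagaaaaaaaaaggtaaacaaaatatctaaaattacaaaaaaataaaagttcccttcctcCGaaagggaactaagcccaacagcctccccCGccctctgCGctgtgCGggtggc
Atp9a exon and intron: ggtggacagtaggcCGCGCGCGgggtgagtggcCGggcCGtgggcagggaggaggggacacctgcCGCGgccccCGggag
Lin28a intergenic: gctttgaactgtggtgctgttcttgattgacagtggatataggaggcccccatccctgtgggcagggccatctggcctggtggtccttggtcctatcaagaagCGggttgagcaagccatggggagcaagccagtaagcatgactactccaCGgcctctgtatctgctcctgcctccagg

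Among the core factors, Pou5f1 (chr17:35642982-35647721, plus strand) had no region at any of its 7 TSS positions and none in its body. Its nearest region (chr17:35576266-35576565, 300 bp) lay 66.4 kb upstream, at the promoter of H2-Q7, a class I major histocompatibility complex gene, and overlapped an H2-Q7 exon. Class I genes are close relatives of one another, and part of the sequence there was repeated in the genome. Of the 75-bp words (the read length) that touch this region, 72.7% occurred once in mm9, against 76.6% over Pou5f1 with 100 kb on each side and 100% at the first Pou5f1 promoter. How reads of such repeats bear on the call was not tested. Pou5f1 sits in a dense neighbourhood, with 117 other protein-coding genes within 1 Mb. Of these, 4 had a promoter region, where 11.9% of all protein-coding genes had one, and the list holds 4 regions in that span.

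Nanog (chr6:122657507-122664651, plus strand) had no region within 100 kb. The nearest one downstream (chr6:122769906-122770825, 920 bp) was just outside that limit, 105 kb from the end of the gene, at the shared promoter region of Foxj2 and Gm4485. Upstream, the nearest region (chr6:121003626-121003885) was 1654 kb away, in the body of Mical3. The Foxj2 region was the only region within 1 Mb of Nanog.

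Sox2 (chr3:34548927-34551383, plus strand) lies in a gene-poor stretch with 4 other protein-coding genes within 1 Mb. Of these, 2 had a promoter region, against 11.9% of all protein-coding genes, and the list holds 2 regions in that span. The nearest region on each side of Sox2 was at a promoter, that of Fxr1, 629 kb upstream (chr3:33918706-33919605, 900 bp, on 4 rows of the list), and that of Atp11b, 1102 kb downstream (chr3:35653266-35653585). Of all protein-coding genes, 78% had a nearer region than Sox2. Within the core, no promoter or body carried a region, where 11.9% of all protein-coding genes had one at a promoter and 12.3% in the body. With 3 genes, the counts are too few to set apart from those of all genes. At the first promoter of each of the 3 genes, 100% of the 75-bp words occurred once in mm9. In the bodies the shares were 91.3% for Pou5f1, 92.7% for Nanog and 100% for Sox2.

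Of the KLF factors, Klf4 (chr4:55540013-55545347, minus strand) carried a wide region on its promoter (chr4:55544586-55545565, 980 bp). It was on 2 rows of the list and was wider than 86.8% of the 2566 regions at promoters, whose median width was 420 bp. The region reached from 218 bp upstream of the first TSS to 761 bp downstream and held all 4 annotated Klf4 TSS positions. Of its 762 bases inside the gene, 666 were exonic, of which 651 were UTR in some transcript and 42 coding, with overlap between transcripts, and 96 were intronic. Its GC content was 65.1%, and 10.4% of the promoter regions had a lower one. The Klf4 region also stood alone: Klf4 has 2 other protein-coding genes within 1 Mb, and no other region lay in that span. The next regions were 1153 kb downstream, at no promoter (chr4:54386626-54386785), and 1414 kb upstream, at the promoter of D730040F13Rik (chr4:56959746-56959985).

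Klf2 (chr8:74842932-74845555, plus strand), the paralogue that shares much of the Klf4 function in ESCs, had no region within 100 kb. Its neighbours on the list were at promoters of Tpm4, 184 kb upstream (chr8:74659226-74659385, 160 bp), and of Large, 1032 kb downstream (chr8:75877066-75877145, 80 bp). The Klf2 and Klf4 promoters had GC contents of 64.8% and 64.6% and CpG observed/expected ratios of 0.726 and 0.861. Genes with ratios in the same steps of 0.1 had a promoter region in 27.9% and 38.9% of cases. The pair differed in the list, with a region at Klf4 and none at Klf2, where 98.7% of the 75-bp words of the promoter occurred once in mm9.

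Esrrb (chr12:87702067-87862578, plus strand), an orphan nuclear receptor gene, is the longest of the 9 genes, and no region lay in its 160512 bp. Regions flanked it on both sides beyond 100 kb, at the promoters of 1700020O03Rik, 119 kb upstream (chr12:87583006-87583105, 100 bp), and of Vash1, 157 kb downstream (chr12:88019606-88020185, 580 bp). Within 1 Mb of Esrrb the list held 10 regions. Of its 33 protein-coding neighbours there, 9 had a region at a promoter, against 11.9% of all protein-coding genes. Over all protein-coding genes, 12.3% had a region in the body, and the median number of regions within 1 Mb was 4.

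Zfp42 (chr8:44380422-44392363, minus strand) encodes REX1, a zinc finger protein widely used as a marker of undifferentiated ESCs, and it was the member farthest from any region. The nearest lay 1631 kb upstream, at no promoter (chr8:46023506-46023725), and the next 2055 kb downstream, at the promoter of Pcm1 (chr8:42325226-42325385). No region lay within 1 Mb, as for 14.5% of all protein-coding genes, and 91.1% of genes had a nearer region. None of the 7 protein-coding neighbours of Zfp42 within 1 Mb had a promoter region, where 11.9% of all protein-coding genes had one.

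The Zfp42 promoter was picked for printing after the matches of factor words had been seen. It held more of the words searched than any other RefSeq promoter of the 8 members that have one. Sall4 had no such promoter and was not searched, and no region lay at the Zfp42 promoter. RefSeq has the Zfp42 entry on GRCm38.p6, and its 250 upstream bases matched mm9 exactly and once, at chr8:44392364-44392613 on the minus strand. Capitals mark the reverse complements of the POU octamer word ATGCAAAT, 186 to 179 bases upstream of the TSS, and of the KLF word GGGTGTGG, 75 to 68 bases upstream.
Zfp42 promoter: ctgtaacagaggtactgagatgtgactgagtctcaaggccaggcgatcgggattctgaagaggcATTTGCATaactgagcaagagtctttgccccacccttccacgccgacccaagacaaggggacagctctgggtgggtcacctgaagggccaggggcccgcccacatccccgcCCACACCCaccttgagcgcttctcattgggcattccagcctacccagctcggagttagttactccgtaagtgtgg
Among the 32851 RefSeq promoters, 1.74% held the octamer word and 3.56% the KLF word. A match of letters is a description and no sign of binding.

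Lin28a (chr4:133559245-133574756, minus strand) had no region at its promoter or in its body, and 2 regions downstream. The nearer (chr4:133523246-133524125, 880 bp) lay 35.1 kb from the end of the gene at the promoter of Hmgn2, which encodes a nucleosome-binding protein, and held an Hmgn2 TSS. The other (chr4:133497866-133498045, 180 bp), the intergenic sequence printed above, was 61.2 kb from Lin28a and 25.1 kb from the nearest TSS of any gene, which was that of Hmgn2. It was the one region within 100 kb of a member that lay away from promoters, and its CpG observed/expected ratio was 0.136, where the 907 regions away from promoters had a median of 0.280 and the promoter regions a median of 0.903. Lin28a had 11 regions within 1 Mb, more than any other member.

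Sall4 (chr2:168573832-168593443, minus strand), a zinc finger gene with 6 annotated TSS positions, counted as having a promoter region because a 380 bp region in an intron (chr2:168591506-168591885) came within 1 kb of several of them. The region held no Sall4 TSS and no base of a Sall4 exon. The nearest Sall4 TSS upstream of it was 644 bp away and the nearest downstream 760 bp, and the first Sall4 TSS was 1558 bp upstream. It did hold the TSS of Gm14261 (chr2:168591643-168593608, plus strand), 137 bp from the start of the region. Whether the region belongs to Sall4 or to Gm14261 cannot be told from positions. If a region is given only to the gene with the nearest TSS, a rule chosen after the data had been seen, Klf4 is the only member with a promoter region (1 of 9, against 11.1% of all protein-coding genes). Counting from the 5'-most TSS of each gene likewise left Klf4 alone, against 10.8% of all protein-coding genes.

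The other region near Sall4 (chr2:168567126-168567205) was 6.63 kb past the end of the gene, at the promoter of Atp9a, which encodes a membrane ATPase. It was 80 bp wide, wider than 1.95% of the promoter regions, and had a GC content of 80%. Upstream of Sall4 the list was empty for 1363 kb, up to the promoter of Zfp217 (chr2:169956126-169956365).

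**Figure D2:**
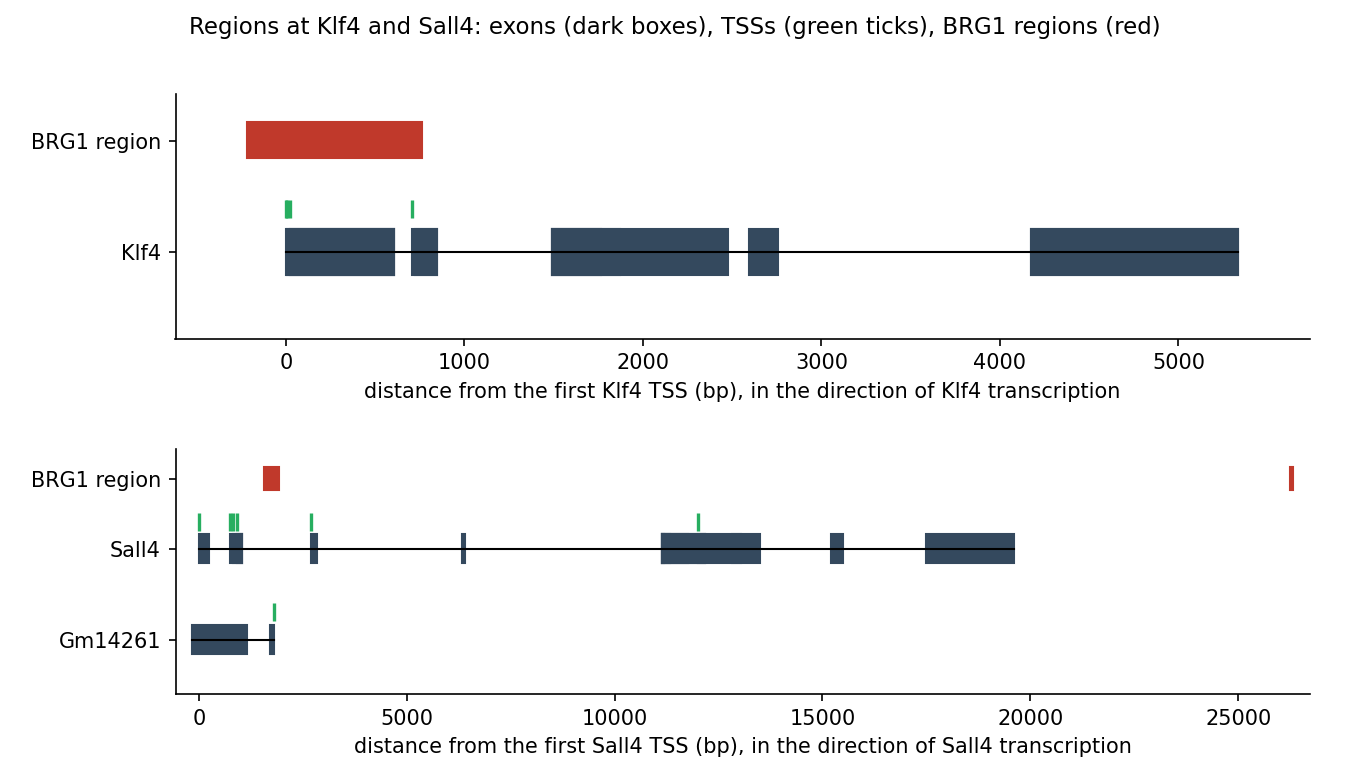
The Klf4 and Sall4 genes with exons of all transcripts (dark boxes), annotated TSSs (green ticks) and BRG1 regions (red), plotted in bp from the first TSS in the direction of transcription of Klf4 or Sall4. The Klf4 region holds all 4 Klf4 TSS positions, whereas the Sall4 region lies in an intron, holds 0 Sall4 TSS positions and covers the TSS of Gm14261, which is read in the opposite direction, and the region at the Atp9a promoter is drawn at the right.

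Over the 9 genes, the median distance from a TSS to the nearest region was 112 kb, against 166 kb for the 22350 protein-coding genes on chromosomes with regions (quartiles 46.1 kb and 533 kb). Of the members, 6 were nearer than that median and 3, Klf2, Sox2 and Zfp42, were farther. The members ran from Klf4, with its TSSs inside a region, to Zfp42, than which 91.1% of genes had a nearer region. The number of regions within 1 Mb ranged from 0 at Zfp42 to 11 at Lin28a, with a median of 4 for the members and 4 for all protein-coding genes.

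**Figure D3:**
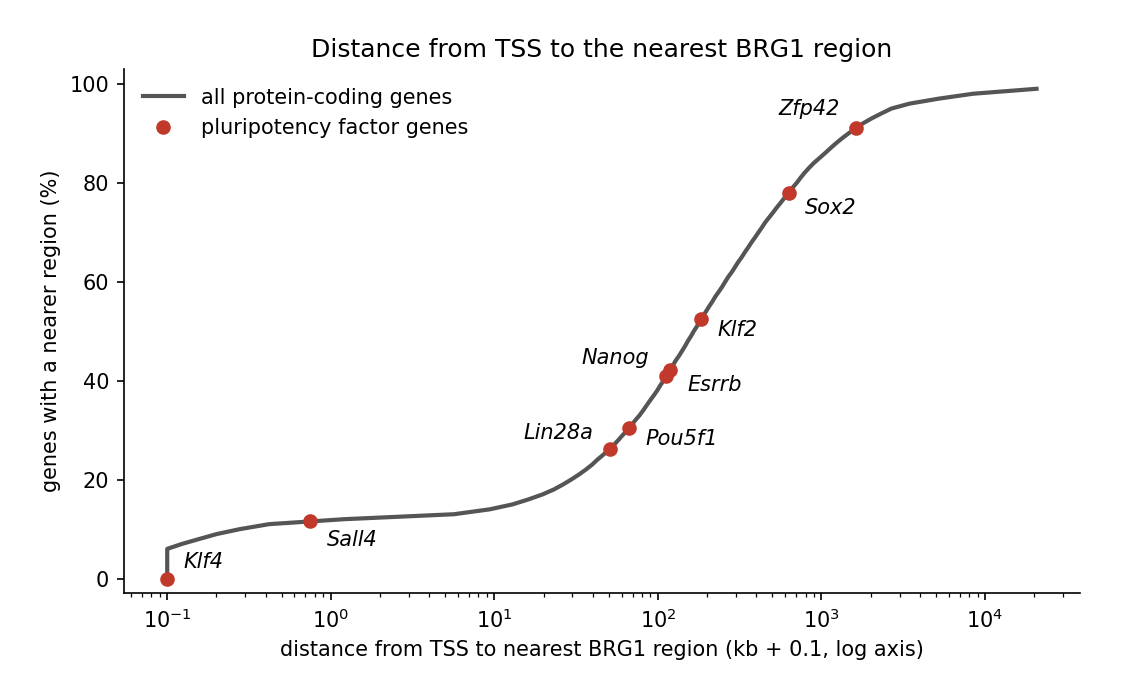
Percent of protein-coding genes with a region nearer to a TSS (vertical axis) against that distance in kb, with 0.1 kb added for the log axis, as a line over all genes and as points for the members. Nanog (112 kb) and Esrrb (119 kb) lie below the median of all genes (166 kb), and Sox2 (629 kb) and Zfp42 (1631 kb) above the upper quartile (533 kb).

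Regions of the list were mostly at promoters (73.9%), and promoters with many CG pairs carried them more often. A promoter was called CpG-rich where the 1 kb on either side of the first TSS had a CpG observed/expected ratio of at least 0.6 and a GC content of at least 55%. Of 4553 protein-coding genes with such a promoter, 35.6% had a promoter region, against 5.87% of the other 17827. Among the members, 3 promoters were CpG-rich: Klf4, with a region, and Sox2 and Klf2, without. The other 6 included Sall4, whose first promoter had a GC content of 47.4% and a ratio of 0.508. The Sall4 region lay outside that window, 1558 bp from the first TSS, and itself had a GC content of 60.5% and a ratio of 0.806, so that the Sall4 count does not pair a region with the promoter measured. Pou5f1, Nanog and Esrrb had the lowest ratios, 0.264, 0.314 and 0.302, and none of these had a region. Promoter counts of 1 of 3 and 1 of 6 are too few to set apart from the shares of all genes.

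**Figure D4:**
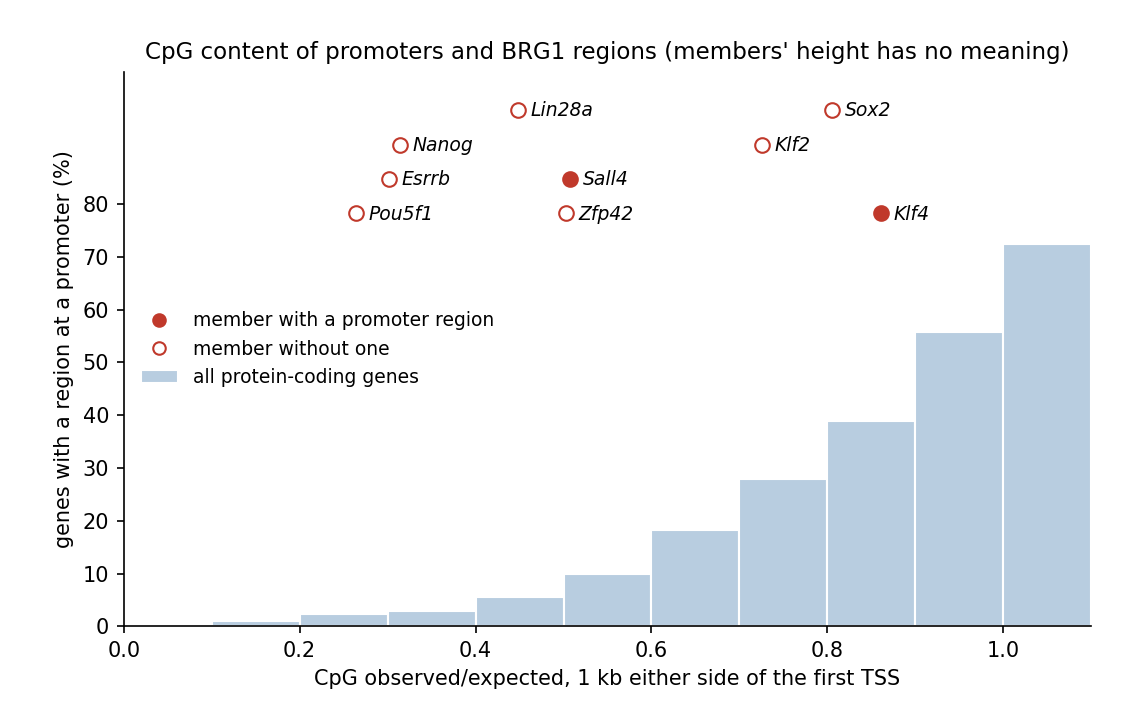
Bars give the percent of protein-coding genes with a region at a promoter by CpG observed/expected ratio of the first promoter, in steps of 0.1 (steps with under 20 genes are not drawn), and circles place the members on the horizontal axis, filled where they have a promoter region (that of Sall4 lies outside the window measured). The bars climb from 0.405% in the lowest step to 72.4% in the highest, and Klf4 (0.861) and Sox2 (0.806) fall in the same step, at 38.9%.

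Short words of 6 factor families were searched on both strands in 500 bp around each region midpoint. They were the POU and KLF words spelled above for Zfp42, the ESRRB word TCAAGGTCA, the T-box word AGGTGTGA, and a SOX and a GATA word. Near the members, the SOX word, spelled AACAATG, was in the window at the H2-Q7 promoter upstream of Pou5f1 and in 3.14% of all region windows of the list. The Klf4 window held the word for GATA factors, which are regulators of mesoderm and heart. That word, AGATAA, was in 12.3% of all region windows and in 4.72% of those at promoters. The other 4 windows held none of the 6 words. RefSeq promoters, from 250 bases before to 50 after a start, were on hand for 8 of the 9 genes, in 11 entries, and Sall4 was not among them. Beside Zfp42, a Pou5f1 entry held the SOX word, as 3.78% of all RefSeq promoters did, and the entries of the other 6 genes held none of the words.

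Other genes of pluripotency were counted in the same way. Of 12 further genes of the naive network, 3 had a promoter region and 4 a region within 100 kb. The 3 were Klf5, a KLF factor of ESCs with a 1000 bp region, Tbx3, a T-box factor that also acts in the heart, and Tet2, which oxidises methylated cytosine, with regions of 100 bp each. Of 18 general pluripotency-associated genes, Lin28b (340 bp), Zfp281 (1080 bp) and Rif1 (220 bp) had a promoter region, and 6 had a region within 100 kb. Of 9 genes of the formative and primed states, 0 had a promoter region and 3 a region within 100 kb.

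Taking these 39 genes as a whole, 6 (15.4%) had a promoter region and 13 (33.3%) a region within 100 kb, and their nearest regions were at a median distance of 193 kb. All 6 with a promoter region were among the 17 with a CpG-rich promoter. Over all protein-coding genes the shares were 11.9% and 40.3%, and over those with a CpG-rich promoter 35.6% had a promoter region.

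Paralogues of the members were counted as a list of chosen genes and not as whole families. Of 10 listed KLF paralogues, 7 had a promoter region: Klf3 (1220 bp), Klf5 (1000 bp), Klf7 (520 bp), Klf9 (620 bp), Klf10 (240 bp), Klf11 (160 bp) and Klf13 (1640 bp). All 6 listed KLF paralogues with a CpG-rich promoter were among them, together with Klf7, whose promoter had a GC content of 54.6%. Of the 6 listed POU and SOX paralogues found in the annotation, 5 had a CpG-rich promoter. Pou2f1, a POU factor found in most cells, was the 1 of these with a region (740 bp). Lin28b, the paralogue of Lin28a, had a promoter region where Lin28a had none, and so did Yy1, the listed paralogue of Zfp42 (800 bp). Paralogues of Esrrb and Sall4 had none at a promoter, although the promoters of Esrra, Esrrg, Sall1 and Sall3 were CpG-rich. In all, 10 of the 23 listed paralogues found in the annotation had a promoter region, against 11.9% of all protein-coding genes. A CpG-rich promoter was found in 17 of the 23 paralogues, against 20.3% of all protein-coding genes, and 9 of these 17 had a region, against 35.6% of all genes with such a promoter. Klf5, Lin28b, Pou3f1 and Sox3 are counted in 2 lists.

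Genes that mark CPs were counted too. Of 11 CP marker genes, 1 had a promoter region and 8 (72.7%) had a region within 100 kb, and the nearest region was at a median distance of 37.9 kb, against 112 kb for the pluripotency factor genes. Over all protein-coding genes, 11.9% had a promoter region, 40.3% had a region within 100 kb, and the median distance was 166 kb. The marker with a promoter region was Isl1, a factor of cardiac progenitors, named after its value had been seen. The lists are small and the difference between them was not tested.

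**Figure D5:**
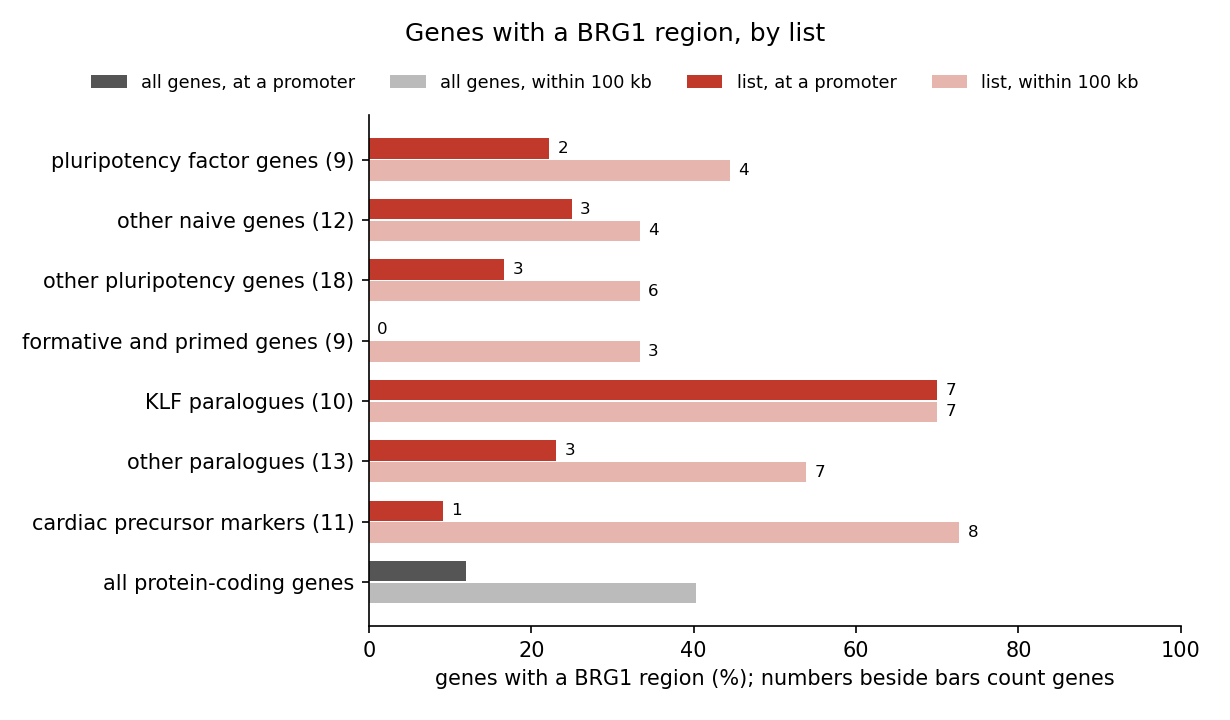
Percent of the genes of each list with a BRG1 region at a promoter (dark bars) or within 100 kb (light bars), with the number of genes of the list in the annotation in brackets and the counts beside the bars. Pluripotency factor genes have 2 of 9 and 4 of 9 (all protein-coding genes 11.9% and 40.3%), KLF paralogues have 7 of 10 at promoters, and CP markers have 1 of 11 at promoters and 8 of 11 within 100 kb.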

How the data were processed

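BRG1 ChIPseq of wild-type CPs was analysed as 1 list behind which stand 2 ChIP libraries and 1 input library. The authors used fastq-mcf to trim single-end reads of 75 bp and Bowtie for alignment to mm9. After a filter on mapping quality, regions were the bins that passed their P-value threshold for enrichment, with input DNA as background. The deposited list used here holds start and end positions in bp, without height, fold or P-value. Versions of fastq-mcf and Bowtie are not given in the sources used here. The paper describes pooling of replicates for tracks and plots, and how they entered the list is not given in those sources.

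The list has 4791 rows, of which 3473 are distinct regions (793 on more than 1 row), and each was counted once. The label of the list was taken as given, although its numbers of rows and of distinct regions match those of different cell stages in the paper.

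Regions were set against the mm9 sequence and GENCODE release M1 with Python 3.11.15, samtools 1.23.1, pysam 0.24.0, numpy 2.4.6, numba 0.67.0, pandas 2.3.3 and matplotlib 3.10.9. Starts were read as counted from 0 and are printed counted from 1. Overlap by 1 bp counted. Distances run from a TSS, or where stated from an end of the gene, to the nearest edge of a region. Counting steps were tested on simulated lists. Uniqueness is the share of 75-bp words that occur once on both strands of the assembly.

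The genes named are the members, the genes at whose promoters regions within 100 kb lie, the nearest region on each side of members with none, and genes of the other pluripotency and paralogue lists with a promoter region. Next regions around Klf4 and upstream of Sall4, genes of the lists without a promoter region and CP markers were named after their values had been seen. The members and lists were chosen with earlier results of these data known. Tfcp2l1 was matched by its older symbol, and 1 paralogue, Sox1, was not matched and was left out. No test was run, since 1 list has no replicates.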

Additional observations from a re-analysis of the deposited data

How the results depend on the processing

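No paired analysis was possible because replicates share 1 set of positions in the list used here. The 6 results were recomputed under 22 alternatives, 2 of them chosen after seeing the data. Counts and the median distance were compared within 1.5 times, and the percent of genes with its 95% Wilson interval, which covers counting error only. By this measure 13 stayed within these limits and 9 moved. The measure has no outcome for a reversal, so whether the members changed sides against all genes was not scored. Members with a promoter region fell from 2 to 1 with promoters of 500 bp either side, where 11.5% of all protein-coding genes had one. They also fell to 1 with the 5'-most TSS only, and where a region was given to the gene with the nearest TSS. Klf4 was the 1 in each case. At 200 kb, 7 of 9 members had a region within reach against 55.5% of all protein-coding genes, where at 100 kb it was 4 of 9 against 40.3%, and the members had 15 regions. The percent of genes with a promoter region was 7.93% over all annotated genes, 12.4% on autosomes, 35.6% for CpG-rich promoters and 11.1% by the nearest TSS, against 11.9%. The depth is unknown, and no stricter threshold could be tried because regions have no score.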

Other observations

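Some genes had regions in their bodies and none at a promoter, and these were named after their values had been seen. Sall1, a paralogue of Sall4 that acts in limb and kidney development, had 2 regions in its body and the nearest was 1.24 kb from a TSS. Esrrg, a paralogue of Esrrb, had 1 in its body, 42.2 kb from the nearest TSS, where Esrrb had 0 in its body. Tet1, which oxidises methylated cytosine as Tet2 does, had 1 in its body, 10.03 kb from a TSS.

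Among the CP markers, Gata4 had 2 regions in its body, the nearest 1.82 kb from a TSS, and 4 within 100 kb. Nkx2-5 had 1 region in its body, 1.97 kb from a TSS, and Tbx5 had 3 regions within 100 kb, the nearest at 37.9 kb. Hand2, Kdr and Tbx20 had none within 100 kb, and their nearest regions were 3312 kb, 643 kb and 199.96 kb from a TSS.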
